A study of Mus musculus with 6 samples.

Results

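Acod1 and 8 genes of the citric acid cycle (Cs, Idh1, Idh2, Idh3a, Ogdh, Sdha, Fh1 and Mdh2) were followed by RNA sequencing in cells of mouse bronchoalveolar lavage fluid, which is collected by rinsing the air spaces of the lung with saline. The genes were chosen by name, and they make up 9 of the 22800 gene symbols in the table of expression values. Idh1, whose enzyme lies in the cytosol, is counted with the cycle genes and in every sum and mean of the 8 enzymes. The sulfatide group held 3 libraries (replicates 1, 2 and 3) from mice injected intraperitoneally with 20 µg of sulfatide, a sulfated glycolipid of myelin that CD1d presents to type II natural killer T cells. The vehicle group held 3 libraries (replicates 2, 3 and 4) from control mice given vehicle. The labels give no strain, age or time after injection, and leave unsaid whether each library is a different animal. The p-values therefore rest on the spread between libraries alone, and that spread may be technical. The title of the series names lung ischemia-reperfusion injury, but the labels do not say whether these mice had undergone it.

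Acod1 encodes aconitate decarboxylase, which macrophages switch on when they meet bacterial products or interferons. It draws cis-aconitate out of the citric acid cycle in mitochondria and turns it into itaconate, which inhibits succinate dehydrogenase and modifies proteins such as KEAP1. The cycle itself runs from citrate synthase through the isocitrate dehydrogenases, the 2-oxoglutarate dehydrogenase complex, succinyl-CoA ligase, succinate dehydrogenase and fumarase to malate dehydrogenase, and it supplies electrons to the respiratory chain.

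Levels are FPKM, fragments scaled to transcript length and to the library total, so levels of different genes can be set side by side. FPKM summed to 1217971 to 1249691 in the sulfatide libraries and 1126779 to 1168474 in the vehicle libraries, and the files give no absolute depth. Relative to vehicle replicate 2, depth was estimated at 0.85 to 1.21 in the sulfatide libraries and 1.01 to 1.06 in the other vehicle libraries. A gene was tested if it reached 1 FPKM in at least 3 libraries, which 10405 genes did, all 9 described here among them. Differences are sulfatide minus vehicle in log2(FPKM + 1), with the standard error and p of limma, adjusted by the Benjamini-Hochberg method over the tested genes, and an adjusted p below 0.05 was a call. Macrophage markers were abundant, with a summed level of 27070 to 38280 FPKM in sulfatide libraries and 29690 to 34370 FPKM in vehicle libraries. Lyz2 made up most of that sum, with means of 30690 FPKM with sulfatide and 28930 FPKM with vehicle. Of the 7 markers 0 were called. Differences were -0.31 ± 0.11 for Adgre1, -0.24 ± 0.13 for Csf1r and -0.63 ± 0.26 for Fcgr1. They were 0.07 for Cd68, 0.07 for Lyz2, 0.20 for Mertk and 0.06 for Itgam. Adgre1 was called lower without sulfatide replicate 2, at a limma adjusted p of 0.0244, and Fcgr1 lower without vehicle replicate 3, at 0.0023. Of 8 markers of alveolar macrophages, 4 (Siglecf, Car4, Fabp1 and Krt79) stayed below 1 FPKM in all 6 libraries, Fabp1 and Krt79 at 0. The other 4 were tested and 0 were called. Means were 103.4 FPKM with sulfatide and 93.06 FPKM with vehicle for Marco, and 31.23 and 25.07 FPKM for Chil3. For Ear2 they were 2.91 and 2.95 FPKM, and for Pparg 0.893 and 1.03 FPKM. Marco stood at 182.65 FPKM in sulfatide replicate 2 and was called lower without that library (limma adjusted p = 0.0263). The list summed to 86.4 to 232.9 FPKM with sulfatide and 105.8 to 139.5 FPKM with vehicle. All 7 T, NKT and NK cell markers, all 3 B cell markers and all 6 epithelial markers were below 1 FPKM in every library.

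Of the 9 genes, Acod1 fell 2.41-fold in mean level with sulfatide and Fh1, which encodes fumarase, rose 1.29-fold, while the other 7 enzymes did not pass the test. The call of Acod1 held in 17 of 17 alternative settings, and the call of Fh1 held in 7 of 17. Over all tested genes 18.7% were called, 8.31% higher and 10.4% lower (865 and 1078 genes), which is the background for every count of calls given here. With the libraries rescaled to TPM, 467 genes were called higher and 1527 lower. Among the 8 enzymes 1 was called higher and 0 lower, and their median difference was 0.11 on the log2 scale, beside a median of 0.04 over all tested genes.

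**Figure D1:**
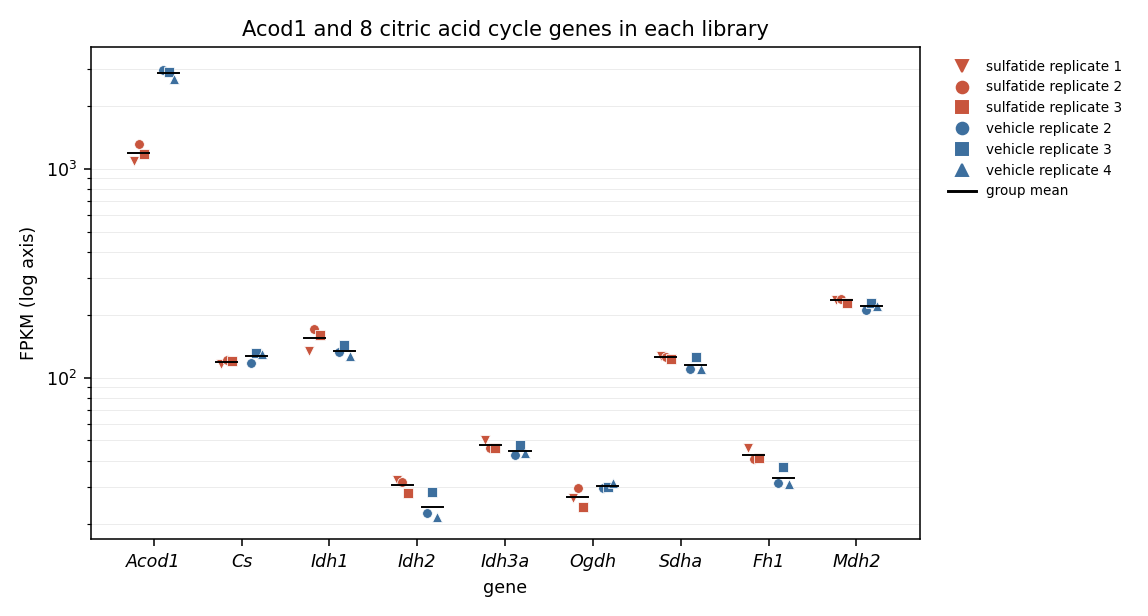
FPKM (log axis) of Acod1 and the 8 cycle genes in each of 6 libraries, sulfatide left of vehicle for each gene, with markers for replicates and black bars for group means. Acod1 lies between 1091 and 1307 FPKM with sulfatide and between 2699.9 and 2977 FPKM with vehicle, while the 8 enzymes lie between 21.5 and 238 FPKM over both groups.

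Sequences before the transcription starts of the called genes, Acod1 and Fh1, are shown because they differ in base composition and in the motifs they hold. Both are 250 bases 5′ of the RefSeq start, on the strand of the gene, in GRCm38.p6, the assembly of the mm10 build the submitters name. Acod1 lies at chr14:103047012-103056573 on the plus strand, with the sequence shown at chr14:103046762-103047011. Fh1 lies at chr1:175601378-175625635 on the minus strand, with the sequence shown at chr1:175625636-175625885. Capitals in the first mark, in order, a CCAAT box read on the other strand, an NF-kappaB core (GGNNTTTCC, read on the other strand) and a TATA box, and capitals in the second mark a pair of CCAAT boxes read on the other strand.
Acod1: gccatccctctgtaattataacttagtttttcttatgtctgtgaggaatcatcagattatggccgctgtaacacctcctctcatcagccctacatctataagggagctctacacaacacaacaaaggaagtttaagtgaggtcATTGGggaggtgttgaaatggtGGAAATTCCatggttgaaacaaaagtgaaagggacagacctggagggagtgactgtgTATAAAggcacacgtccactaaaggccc
Fh1: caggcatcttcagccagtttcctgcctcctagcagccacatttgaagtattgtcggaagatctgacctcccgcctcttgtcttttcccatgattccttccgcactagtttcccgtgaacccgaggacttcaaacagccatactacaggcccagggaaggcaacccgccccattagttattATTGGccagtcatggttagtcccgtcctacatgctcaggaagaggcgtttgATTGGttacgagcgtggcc

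RefSeq windows of 300 bases, 250 before and 50 after the start, were available for 8 of the 9 genes and were searched on both strands. In the Acod1 window the NF-kappaB core began at position -85 from the start, the CCAAT box at -107 and the TATA box at -28. GENCODE places the start of Acod1 35 bases further upstream, so on that annotation the TATA box falls inside the first exon. Of all 32851 mouse windows, 5.82% held GGNNTTTCC, 37.4% held CCAAT and 13.6% held TATAAA. Of the 7 enzymes with a window, Cs also held an NF-kappaB core, at -215. Neither the interferon response core GAAANNGAA (8.56% of windows) nor the STAT site TTCNNNGAA (8.3% of windows) was matched in the Acod1 window. Only exact matches to these letters were sought, so stretches that differ from them by a base were not counted. The Acod1 window held 2 CpG and 47.0% GC, and 14.1% of all windows held fewer CpG. The Fh1 window held 14 CpG and 54.3% GC, with CCAAT boxes at -70 and -19. Across the first windows of 7 enzymes, CpG counts ran from 14 to 27 and GC from 54.3 to 68.3%, beside medians of 7 CpG and 52.7% GC in all windows. CCAAT was matched in 6 of these 7 windows and the GC box GGGCGG, found in 35.7% of all windows, in 6, while TATAAA was matched in none of them. The Sdha window held 3 matches to the NRF1 site GCGCANGCG, at -98, -55 and -10, a motif found in 6.25% of all windows. A match is a description of the letters and not of binding.

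Acod1 was the most abundant of the 9 genes in every library. It was measured at 1091, 1307 and 1169 FPKM in sulfatide replicates 1, 2 and 3, against 2977, 2919 and 2699.9 FPKM in vehicle replicates 2, 3 and 4. The groups did not overlap, and the highest sulfatide library was well below the lowest vehicle library. Mean levels were 1189 ± 109 FPKM with sulfatide and 2865 ± 146 FPKM with vehicle (SD, n = 3 each). The difference was -1.27 ± 0.09 on the log2 scale (95% interval -1.48 to -1.06, limma adjusted p = 6.9e-05). Across the 17 alternatives it ran from -1.38 to -1.21, with adjusted p between 6.05e-06 and 0.0013. In a bulk sample, fewer cells that express a gene and less of its RNA per cell cannot be told apart.

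Acod1 ranked 181st, 143rd and 164th among all genes of the table in the sulfatide libraries and 31st, 32nd and 35th in the vehicle libraries. Its share of summed FPKM was 0.0873, 0.107 and 0.0942% with sulfatide, against 0.262, 0.250 and 0.240% with vehicle. It stood lower in the order of abundance in every sulfatide library than in any vehicle library. Among other cell types, the summed level of 11 neutrophil markers was 460.8 to 634.5 FPKM in sulfatide libraries and 174.5 to 240.6 FPKM in vehicle libraries, with S100a8 (419 ± 55.3 against 105 ± 11.7 FPKM) and Mmp8 called higher. Mmp8 was not called without sulfatide replicate 2 or 3 or without vehicle replicate 3 or 4 (limma adjusted p = 0.0739 to 0.126). Over all 17 alternatives it was called in 7. The other tested markers of the list were not called: Csf3r had a difference of 0.33 ± 0.14, S100a9 of -0.15 ± 0.36, Ngp of -0.24 ± 0.28 and Camp of -0.45 ± 0.14 (limma adjusted p = 0.0519). Camp had groups that did not overlap and was called lower without sulfatide replicate 2 or vehicle replicate 4 (adjusted p = 0.0497 and 0.0326). The neutrophil genes Ly6g, Cxcr2, Retnlg, Ltf and Mpo were below 1 FPKM in all libraries. Of 4 stromal markers 1 was called lower (Pdgfrb, 1.83 ± 0.206 against 6.33 ± 0.540 FPKM), and the list summed to 48.5 to 63.5 FPKM with sulfatide and 54.8 to 70.7 FPKM with vehicle. Col1a1 was called lower without vehicle replicate 3 (14.8 ± 2.44 FPKM with sulfatide and 19.7 ± 4.10 FPKM with vehicle over all libraries, limma adjusted p = 0.021 without it). The part of these cells in the difference of Acod1 was not tested.

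Set against the enzymes of the same library, Acod1 was lower with sulfatide whichever enzyme it was divided by. The 8 enzymes summed to 769, 804 and 769 FPKM in the sulfatide libraries and 697, 771 and 715 FPKM in the vehicle libraries, which overlapped. Acod1 FPKM divided by that sum was 1.42, 1.63 and 1.52 with sulfatide, against 4.27, 3.79 and 3.78 with vehicle, a 2.59-fold lower ratio. Acod1 exceeded the 8 enzymes together in all 6 libraries, by a smaller factor with sulfatide. On the log2(FPKM + 1) scale, Acod1 exceeded the mean of the 8 enzymes by 3.85, 4.08 and 4.01 with sulfatide and by 5.49, 5.30 and 5.33 with vehicle. The groups differed by -1.39, and the exact 2-sided permutation test gave p = 0.1, the smallest that 3 against 3 libraries allow.

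By single enzyme the ratio was lowest over Mdh2, at 4.62, 5.49 and 5.13 with sulfatide against 14.2, 12.9 and 12.2 with vehicle. It changed least over Ogdh (44.6 ± 3.64 against 94.9 ± 7.23, 2.13-fold lower) and most over Fh1 (28.0 ± 4.16 against 86.9 ± 8.45, 3.10-fold lower, n = 3 each). The groups overlapped for none of the 8 enzymes. All 8 ratios share the Acod1 values, whose mean fell 2.41-fold, while no enzyme mean moved by more than 1.29-fold. They are therefore not 8 separate results.

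**Figure D2:**
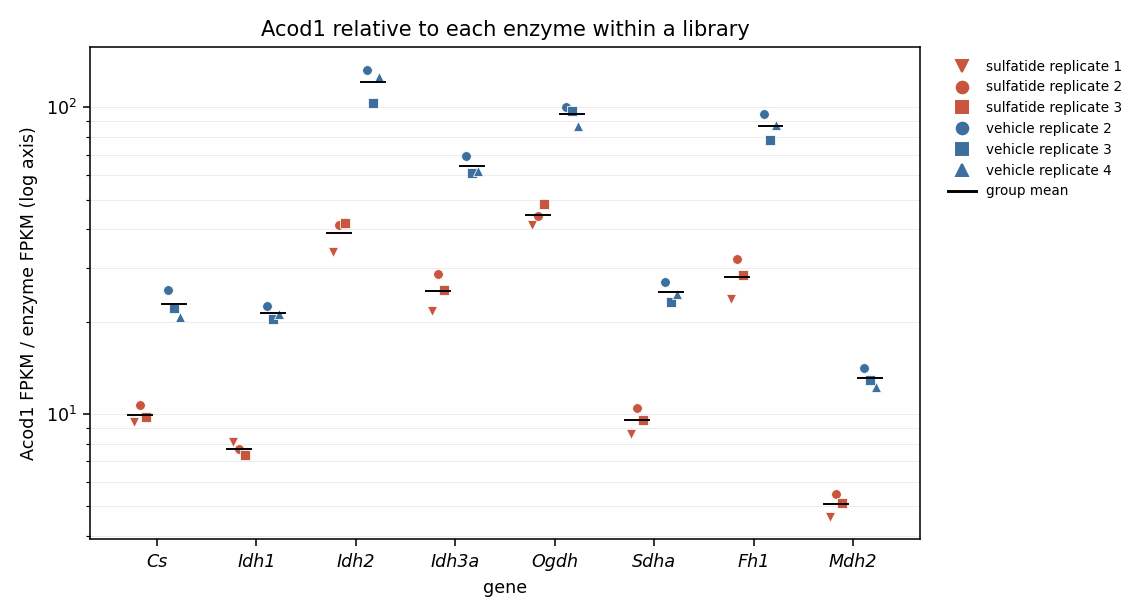
Acod1 FPKM divided by the FPKM of each enzyme within the same library (log axis), sulfatide left of vehicle, with black bars for group means. For each of the 8 enzymes all 3 sulfatide ratios lie below all 3 vehicle ratios, by 2.13-fold over Ogdh to 3.10-fold over Fh1 in the means.

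Before the enzymes are taken in turn, vehicle replicate 3 has to be named, since it stood above the other vehicle libraries for most cycle genes. It was the highest vehicle library for 7 of the 8 enzymes and 10 of 11 other cycle subunits, and for 50.9% of all tested genes. Calls that change without it are given beside each gene named. Groups that did not overlap were found for 3 of the 8 enzymes (Ogdh, Fh1 and Mdh2; 37.5%) and for 37.0% of all tested genes.

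Cs encodes citrate synthase, which joins acetyl-CoA to oxaloacetate at the entry of the cycle. Its level was 116, 122 and 119.6 FPKM with sulfatide, against 117, 132 and 130.02 FPKM with vehicle. The groups overlapped, since vehicle replicate 2 lay among the sulfatide libraries. The difference was -0.08 ± 0.08 (95% interval -0.26 to 0.10, limma adjusted p = 0.52), so the interval allows a small change either way. Csl, a gene closely similar to Cs, did not exceed 0.05 FPKM in any library.

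Idh1 and Idh2 encode the NADP-linked isocitrate dehydrogenases of the cytosol and of mitochondria. Idh1 was measured at 134, 171 and 159.7 FPKM with sulfatide and at 132, 143 and 127 FPKM with vehicle. Sulfatide replicate 1 lay within the vehicle range, and the difference was 0.20 ± 0.10 (95% interval -0.04 to 0.44, limma adjusted p = 0.212). Idh2 was measured at 32.4, 31.7 and 27.9 FPKM with sulfatide and at 22.5, 28.2 and 21.5 FPKM with vehicle. Its groups overlapped only through sulfatide replicate 3 and vehicle replicate 3. The difference of Idh2 was 0.34 ± 0.12 (95% interval 0.07 to 0.62, limma adjusted p = 0.0784), and without vehicle replicate 3 it was 0.46 and called (adjusted p = 0.0162). The ratio of Idh1 to Idh2 was 5.08 ± 0.828 with sulfatide and 5.62 ± 0.481 with vehicle and overlapped.

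Idh3a encodes the catalytic subunit of the NAD-linked isocitrate dehydrogenase, the isocitrate dehydrogenase of the cycle itself. It was measured at 50.3, 45.8 and 45.98 FPKM with sulfatide and at 42.8, 47.8 and 43.7 FPKM with vehicle. The groups overlapped, and the difference of 0.08 ± 0.09 (95% interval -0.12 to 0.28, limma adjusted p = 0.56) took the other sign, -0.03, after rescaling to TPM. Its partner subunits Idh3b (83.8 ± 2.96 against 72.9 ± 2.82 FPKM) and Idh3g (63.4 ± 6.62 against 53.3 ± 3.36 FPKM) had differences of 0.20 ± 0.08 and 0.24 ± 0.10 that were not called (limma adjusted p = 0.114 and 0.128). Within a library, Idh3b per Idh3a was 1.71, 1.76 and 1.84 with sulfatide and 1.64, 1.59 and 1.66 with vehicle. Idh3g per Idh3a was 1.39, 1.40 and 1.23 with sulfatide and 1.17, 1.19 and 1.22 with vehicle. Neither ratio overlapped between groups, and both were slightly higher in the sulfatide libraries.

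Ogdh encodes the first component of the 2-oxoglutarate dehydrogenase complex, which makes succinyl-CoA. It was measured at 26.5, 29.6 and 24.1 FPKM with sulfatide and at 29.6, 29.9 and 31.1 FPKM with vehicle. The groups did not overlap, but only because sulfatide replicate 2 (29.58 FPKM) fell just short of vehicle replicate 2 (29.63 FPKM). The difference was -0.18 ± 0.10 (95% interval -0.40 to 0.05, limma adjusted p = 0.246). Dlst, the second component of the complex, likewise had groups that did not overlap (55.04 ± 2.56 against 61.8 ± 3.00 FPKM), with a difference of -0.16 ± 0.08 (adjusted p = 0.21). Dlst was called lower after rescaling to TPM (adjusted p = 0.0463). The ratio of Dlst to Ogdh was 2.07 ± 0.123 with sulfatide and 2.04 ± 0.135 with vehicle. Dld, the third component, which other dehydrogenase complexes share, stood at 130.0 ± 5.75 FPKM with sulfatide and 128.5 ± 15.9 FPKM with vehicle (0.02 ± 0.10, adjusted p = 0.896).

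Sdha encodes the flavoprotein subunit of succinate dehydrogenase, the enzyme that itaconate inhibits and that is also complex II of the respiratory chain. Its level was 127, 125 and 122 FPKM with sulfatide and 110.5, 126 and 109 FPKM with vehicle. Vehicle replicate 3 lay inside the sulfatide range and the other vehicle libraries below it. The difference was 0.12 ± 0.09 (95% interval -0.08 to 0.31, limma adjusted p = 0.367). The other subunits Sdhb, Sdhc and Sdhd overlapped between groups, with differences of 0.14 ± 0.09, 0.08 ± 0.08 and 0.02 ± 0.08. Sdhd per Sdha was 1.26 ± 0.0442 with sulfatide and 1.35 ± 0.0401 with vehicle and did not overlap, whereas the ratios of Sdhb and Sdhc to Sdha did. The 4 assembly factors of the enzyme (Sdhaf1 to Sdhaf4) had a median difference of 0.21, and 0 were called. Sdhaf1 (16.9 ± 0.471 FPKM with sulfatide and 13.1 ± 4.17 FPKM with vehicle) was called higher without vehicle replicate 3 (limma adjusted p = 0.0105).

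Fh1 encodes fumarase, which hydrates fumarate to malate. It was measured at 46.2, 40.95 and 41.1 FPKM with sulfatide, against 31.4, 37.4 and 30.8 FPKM with vehicle. The groups did not overlap, and vehicle replicate 3 came nearest to the sulfatide libraries. Mean levels were 42.7 ± 2.97 FPKM with sulfatide and 33.2 ± 3.65 FPKM with vehicle (SD, n = 3 each). The difference was 0.36 ± 0.11 (95% interval 0.12 to 0.60, limma adjusted p = 0.0448), close to the threshold. Fh1 was higher with sulfatide in all 17 alternatives, at 0.25 to 0.44, and was not called in 10 of them. Without sulfatide replicate 1, 2 or 3, or vehicle replicate 2 or 4, its adjusted p was 0.155, 0.06, 0.0978, 0.164 and 0.138, and without vehicle replicate 3 it was 0.0137.

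Mdh2 encodes the mitochondrial malate dehydrogenase, which regenerates oxaloacetate, and was the most abundant of the 8 enzymes. Its level was 236, 238 and 228 FPKM with sulfatide and 210.2, 227 and 221 FPKM with vehicle. The groups did not overlap, with sulfatide replicate 3 (227.8 FPKM) just above vehicle replicate 3 (226.8 FPKM). The difference was 0.09 ± 0.07 (95% interval -0.08 to 0.26, limma adjusted p = 0.411) and took the other sign, -0.02, after rescaling to TPM. Mdh1, the cytosolic enzyme, stood at 179 ± 22.2 FPKM with sulfatide and 149 ± 22.8 FPKM with vehicle, overlapped (0.26 ± 0.13, adjusted p = 0.184), and was called without vehicle replicate 3 (adjusted p = 0.0378).

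Setting enzymes against each other within a library shows the spread inside the cycle. Fh1 per Ogdh, a ratio picked after its values were seen, was 1.74, 1.38 and 1.70 with sulfatide and 1.06, 1.25 and 0.990 with vehicle, 1.47-fold higher and without overlap. Idh2 per Idh3a was 0.648 ± 0.0423 with sulfatide and 0.536 ± 0.0498 with vehicle and did not overlap. These ratios do not depend on how the libraries are scaled, and no test was run on them. No ratio of a cycle gene to another that is given in the text was planned. How often ratios of other gene pairs separate the groups was not computed, so a lack of overlap has no background here. The order of mean levels was the same in both groups except at 2 neighbouring pairs, since Sdha stood just above Cs with sulfatide and below it with vehicle, and Ogdh stood below Idh2 with sulfatide and above it with vehicle. In both groups Mdh2 and Idh1 led the 8 enzymes. Among neighbours in this order, the library values overlapped for Idh3a and Fh1 and for Idh2 and Ogdh in the sulfatide group, and for Idh1 and Cs, Cs and Sdha, and Fh1 and Ogdh in the vehicle group. The values of all other neighbours did not overlap.

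The 11 other cycle subunits gave 0 calls in either direction, against the background of 18.7%, and 2 of them (Idh3b and Idh3g) had an unadjusted p below 0.05. Their median difference was 0.08, with 8 positive and 3 negative. Over all 10405 tested genes, 3517 had an unadjusted p below 0.05, and 5756 differences were positive and 4649 negative. Of the succinyl-CoA ligase genes, the shared subunit Suclg1 (0.13 ± 0.09) and the ATP-forming Sucla2 (61.2 ± 4.70 against 55.01 ± 4.87 FPKM, 0.15 ± 0.10) were not called. The GTP-forming Suclg2 was much less abundant, at 4.43 ± 0.816 FPKM with sulfatide and 5.48 ± 0.811 FPKM with vehicle (-0.26 ± 0.15, adjusted p = 0.256). Sucla2 per Suclg2 was 14.0 ± 1.83 with sulfatide and 10.1 ± 1.03 with vehicle and did not overlap. Of all 19 cycle genes, 14 had a positive and 5 a negative difference.

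**Figure D3:**
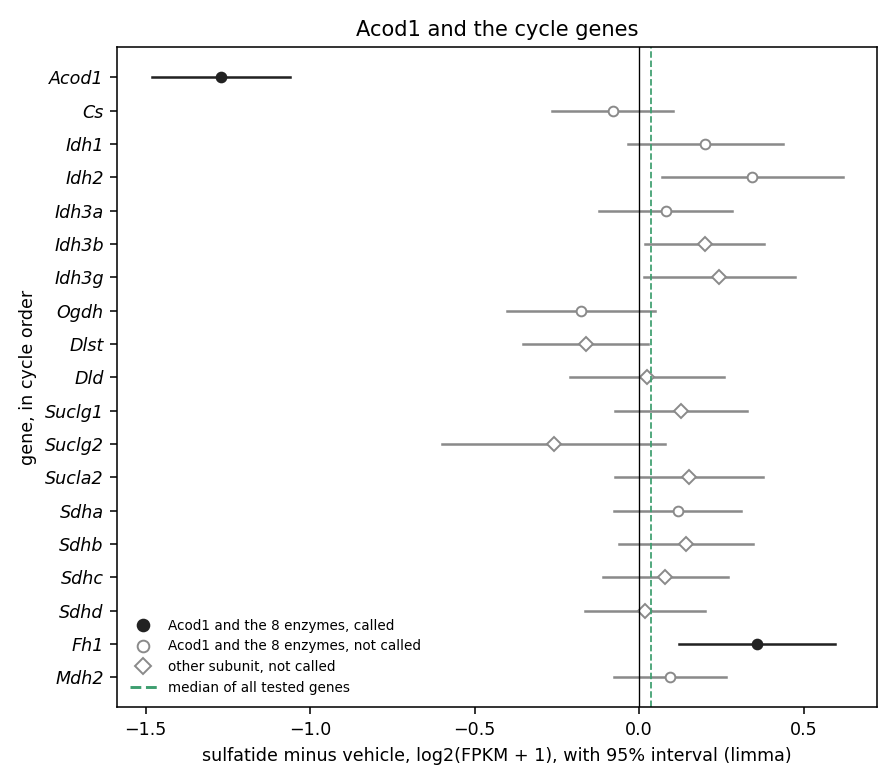
Difference between sulfatide and vehicle in log2(FPKM + 1) with its 95% interval for Acod1 and cycle genes in the order of the cycle; filled points were called, circles are Acod1 and the 8 enzymes, diamonds the other subunits, and the dashed line is the median of all tested genes. Acod1 at -1.27 stands apart from the cycle genes drawn, which lie between -0.26 and 0.36, and Fh1 is the filled point among them.

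Genes that feed, drain or regulate the cycle were read from lists chosen with earlier results of these data known. Of 14 genes for the entry of pyruvate 12 were tested and 1 was called higher, Pdk2, a kinase that inhibits pyruvate dehydrogenase. Its level was 4.69, 4.28 and 3.79 FPKM with sulfatide and 1.22, 2.19 and 2.59 FPKM with vehicle, 2.13-fold higher in the means (0.83 ± 0.18, limma adjusted p = 0.0148). The groups did not overlap at these low levels. Mpc2, a subunit of the mitochondrial pyruvate carrier, was 125 ± 3.75 FPKM with sulfatide and 101.5 ± 11.8 FPKM with vehicle (0.31 ± 0.10, adjusted p = 0.0571) and was called without vehicle replicate 3 (adjusted p = 0.0114). Pdk3, another inhibiting kinase (0.26 ± 0.12, adjusted p = 0.145), and Pdp1, a phosphatase that reactivates pyruvate dehydrogenase (-0.16 ± 0.12, adjusted p = 0.365), were not called.

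Among 12 carriers and cytosolic counterparts 1 was called higher and 2 lower. Slc25a10, the mitochondrial dicarboxylate carrier that exchanges malate and succinate for phosphate, was 22.5 ± 3.74 FPKM with sulfatide and 34.3 ± 2.58 FPKM with vehicle (-0.60 ± 0.13, limma adjusted p = 0.0134), and was not called without vehicle replicate 2 (adjusted p = 0.0636). Slc25a12, an aspartate-glutamate carrier of the malate-aspartate shuttle, was 32.6 ± 0.716 FPKM with sulfatide and 45.3 ± 4.23 FPKM with vehicle (-0.46 ± 0.09, adjusted p = 0.0113). Both fell without overlap of the groups. Me2, the mitochondrial malic enzyme that makes pyruvate from malate, rose to 32.9 ± 1.20 FPKM with sulfatide, against 24.6 ± 2.79 FPKM with vehicle (0.41 ± 0.10, adjusted p = 0.0256). Me2 was not called in any of 5 fits that each left out a library other than vehicle replicate 3 (adjusted p = 0.0538 to 0.11). Over all 17 alternatives, Slc25a10 and Slc25a12 were each called in 16 and Me2 in 10. Me1, the cytosolic malic enzyme, was called lower without sulfatide replicate 2 (adjusted p = 0.0061) but not with all 6 libraries (-0.44 ± 0.25, adjusted p = 0.244).

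Of 11 genes for the entry of amino acids 9 were tested and 1 was called higher, Mcee, the methylmalonyl-CoA epimerase on the route of propionyl-CoA to succinyl-CoA. It was measured at 46.0, 42.9 and 44.6 FPKM with sulfatide, against 32.3, 36.4 and 21.5 FPKM with vehicle (0.58 ± 0.17, limma adjusted p = 0.0436). Its groups did not overlap, but the call was lost in 5 fits that each left out a library other than vehicle replicate 3 (adjusted p = 0.0588 to 0.11). Over all 17 alternatives Mcee was called in 8. Of 7 genes for the breakdown, uptake and sensing of itaconate, succinate and related acids 5 were tested and 0 called. Slc13a3, a carrier of dicarboxylates in the cell membrane, was 4.15 ± 1.63 FPKM with sulfatide and 7.20 ± 2.21 FPKM with vehicle (-0.68 ± 0.27, adjusted p = 0.106), and was called without vehicle replicate 3 (adjusted p = 0.0239). Clybl, whose enzyme acts in the breakdown of itaconate by way of citramalyl-CoA, was 14.0 ± 1.86 FPKM with sulfatide and 12.6 ± 1.45 FPKM with vehicle (0.14 ± 0.13, adjusted p = 0.46). Oxgr1, the 2-oxoglutarate receptor that also binds itaconate, was listed at 0 in all libraries, and Sucnr1, the succinate receptor, did not exceed 0.07 FPKM.

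Transcripts of factors known to act on Acod1 transcription were called lower in 7 of 9 cases, against a background of 10.4%. The differences of these factors were negative in 8 of 9 cases, with a median of -0.53. Stat2, a mediator of type I interferon signals, was 24.8 ± 1.69 FPKM with sulfatide and 75.0 ± 21.2 FPKM with vehicle (-1.52 ± 0.18, limma adjusted p = 0.000643). Nfkb1, which encodes the p50 subunit of NF-kappaB, was 79.1, 91.2 and 84.8 FPKM with sulfatide and 209, 216 and 187 FPKM with vehicle (-1.25 ± 0.09, adjusted p = 7.13e-05). Both of these genes had groups that did not overlap, and each was called in 17 of 17 alternatives. Irf1, an interferon-induced activator of transcription, was 106 ± 20.6 FPKM with sulfatide and 174 ± 27.7 FPKM with vehicle (-0.71 ± 0.15, adjusted p = 0.014), and was not called without vehicle replicate 2 (adjusted p = 0.0659). Cebpb was lower by a smaller step (-0.53 ± 0.12, adjusted p = 0.0146), and was not called without sulfatide replicate 1 or 3 (adjusted p = 0.0503 and 0.059). Rela (-0.39 ± 0.09, adjusted p = 0.016) was not called without sulfatide replicate 1 or 3 or vehicle replicate 2 or 4 (adjusted p = 0.056 to 0.0644). Irf9 (-0.30 ± 0.09, adjusted p = 0.0416) lost its call in 5 fits, each without a library other than vehicle replicate 3 (adjusted p = 0.0589 to 0.146). Over all 17 alternatives, Irf1 was called in 15, Cebpb in 14, Rela in 12 and Irf9 in 10. Irf8 (0.18 ± 0.10) and Tfeb (-0.22 ± 0.12) were not called, each at an adjusted p of 0.24.

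**Figure D4:**
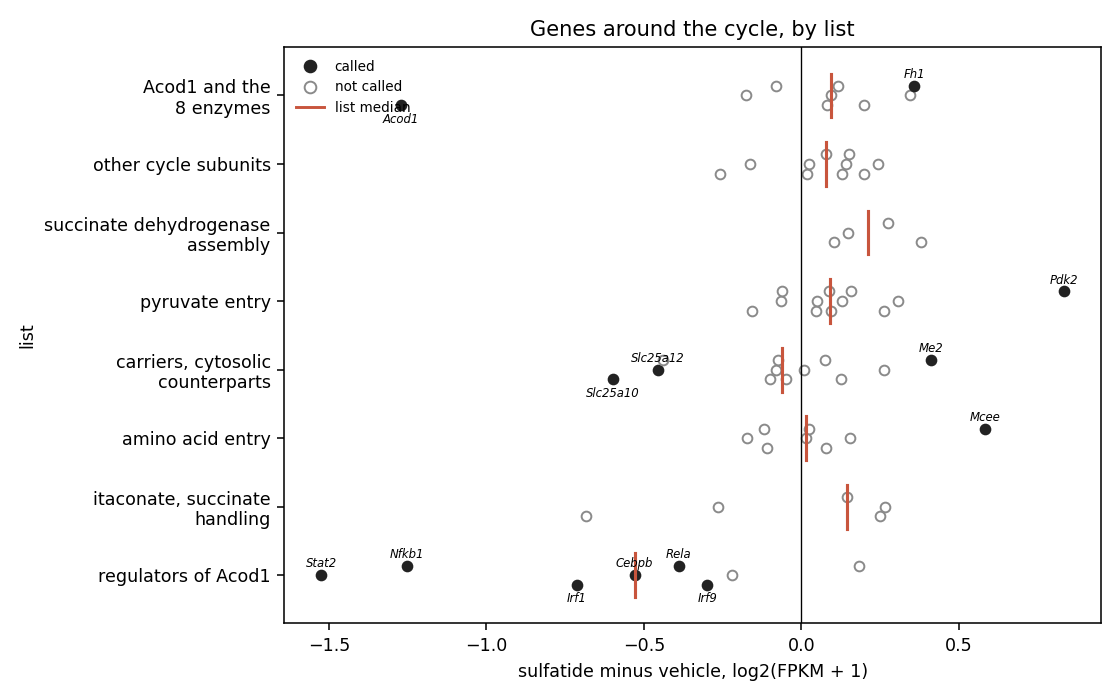
Difference between sulfatide and vehicle in log2(FPKM + 1) for the tested genes of 8 lists, 1 list a row, with filled points for called genes, open points for the others and an orange bar at the median of the whole list; genes not reported by name are not drawn. The bar of the regulators of Acod1 stands at -0.53, while those of the other 7 lists lie between -0.06 and 0.21.

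Over the 6 libraries, the tested genes whose log2(FPKM + 1) followed Acod1 most closely were Itgav (Pearson r = 0.9995), Nfkb1 (0.9985), Map3k5 (0.9984), Tnfaip3 (0.998) and Traf1 (0.9978). They were ranked among 8168 genes with at least 5 FPKM in the higher group. These r describe 6 libraries that fall into the treatment groups, so a gene that differs between the groups scores high, and 403 genes reached an r of 0.95. Tnfaip3, which encodes the NF-kappaB inhibitor A20, was 25.4 ± 2.41 FPKM with sulfatide and 67.5 ± 5.01 FPKM with vehicle, 2.66-fold lower. Traf1, an adaptor of tumour necrosis factor receptors, was 50.4 ± 5.02 FPKM with sulfatide and 205 ± 8.94 FPKM with vehicle. Itgav, the integrin alpha V subunit, was 20.6 ± 1.54 FPKM with sulfatide and 36.7 ± 1.09 FPKM with vehicle, and Map3k5, the stress-activated kinase ASK1, was 5.35 ± 0.406 FPKM with sulfatide and 10.1 ± 0.387 FPKM with vehicle. Kctd12, a tested gene 64375 bases from Acod1 on chromosome 14, was not called, at 12.4 ± 2.72 FPKM with sulfatide and 21.4 ± 7.60 FPKM with vehicle (-0.71 ± 0.23, limma adjusted p = 0.0579), and was called without vehicle replicate 3 (adjusted p = 0.0189) or sulfatide replicate 2 (adjusted p = 0.0476). The long noncoding RNA gene Gm41235 overlaps the start of Acod1 and was not analysed here, and whether counting used the strand is not given in the sources used here.

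**Figure D5:**
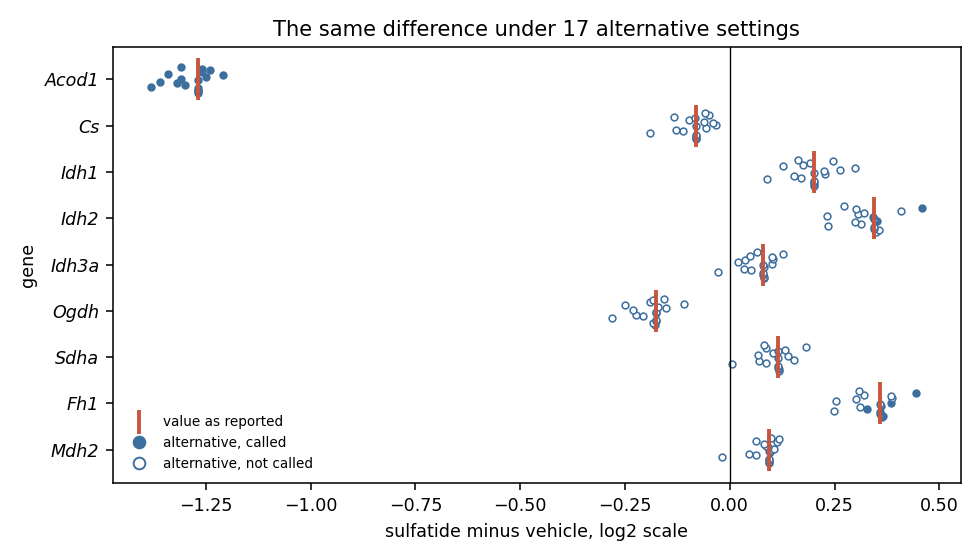
Difference between sulfatide and vehicle on the log2 scale for Acod1 and the 8 enzymes, as reported (orange bars) and under 17 alternative settings (points, filled where called). All points of Acod1 are filled, between -1.38 and -1.21, while 7 points of Fh1 and 3 of Idh2 are filled and those of the other enzymes are open.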

How the data were processed

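RNA of lavage cells was poly(A)-selected and sequenced as strand-specific paired-end libraries, per the labels' protocols, and per the submitters' processing notes reads were placed on mm10. Which aligner, counter and annotation were used is not given in the sources used here. The authors deposited FPKM values rounded to 2 decimals for 22800 gene symbols. In that table, 3 value columns matched no sample and were not used. Groups came from the sample titles.

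FPKM are not counts, so log2(FPKM + 1) was fitted with limma 3.58.1 in R 4.3.3 (intensity trend, no covariate, 2-sided, Benjamini-Hochberg over 10405 genes). The procedure was also run on simulated data. The noise there was independent between genes, so that run cannot vouch for the calls in these libraries. Folds are ratios of mean FPKM, and the pseudocount of 1 understates changes of low genes. Sequences and positions came from RefSeq (GRCm38.p6) and GENCODE.

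Genes, lists and markers were chosen with earlier results of these data known. Named were Acod1, the cycle genes, up to 4 genes of each other list with the smallest p, the 5 genes most like Acod1, its neighbours and markers. Clybl, Oxgr1, Sucnr1, Cebpb, Rela, Irf8, Irf9, Tfeb, Me1 and Csl were added after their values were seen. Some genes counted in the lists are not reported here by name. Planned protein comparisons were not made. The 17 alternatives changed the pseudocount (0.5 or 0.1), dropped the filter or raised it to 5 FPKM, rescaled the libraries in 4 ways, dropped the trend, weighted the libraries, added a replicate block or left out each library.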

Additional observations from a re-analysis of the deposited data

How the results depend on the processing

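The Acod1 call and 14 of the 19 cycle genes, which were never called, did not change in any of the 17 alternatives, and no called gene among these 20 turned its direction. Genes called higher numbered 522 with no filter, 467 on the TPM scale, 2054 when libraries were weighted (array weights), 297 with the replicate block and 268 to 1421 with a library left out, against 865 as reported. Genes called lower numbered 1723 with array weights, 635 with the block and 642 to 1135 with a library left out, against 1078. Leaving out vehicle replicate 2 gave the lowest of both ranges (268 and 642). Each library except sulfatide replicate 2 moved the first count by over 1.5 times, and sulfatide replicate 3 and vehicle replicate 2 the second. Of the 9 genes, 0 were called higher with no filter, with TPM, with scaling to the sum without Saa3, with no intensity trend and with the block, 2 with quantile normalization and with array weights, and 0 to 2 with a library left out. Of the 11 other subunits, 1 was called lower with TPM, and 1 higher and 1 lower with array weights. The cause of these moves was not tested. TPM lowered the median difference of all genes to -0.06. The sign turned for 5 uncalled genes, in 1 alternative (TPM) for Idh3a, Mdh2 and Sdhc, in 6 for Dld and in 5 for Sdhd.

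The groups share only the replicate numbers 2 and 3. Deviations from the group means in libraries with the same number had r = 0.156 and -0.303. With 3 libraries a group, these r cannot decide whether libraries of the same number were paired. Saa3 took 6.52 to 6.93% of summed FPKM with sulfatide and 2.40 to 2.58% with vehicle, which moves every other gene's share. With 3 libraries a group, depth unknown and values rounded, differences as small as the half-widths of the intervals given were not detectable.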
